A study of Homo sapiens with 18 samples.

Results

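The genes described here are 10 genes of amino acid synthesis and transport that are known to be driven by the transcription factor ATF4: ASNS, PHGDH, PSAT1, PSPH, SHMT2, MTHFD2, SLC7A11, SLC7A5, SLC3A2 and SLC7A1. They were chosen by name, with earlier results of these data known. Every probe set that the gene table of the platform assigned to a single one of these symbols was taken, which gave 23 of the 54675 rows on the array. Of these, 21 were present and tested, with at least 1 for each gene, and the others were ASNS 241082_at and PSPH 244819_x_at. A further probe set listed with PHGDH was left out because it is also listed with MZT2A and MZT2B. Where a gene had several probe sets, the one with the highest mean over the arrays represented it. In the annotation of GRCh38.p14, ASNS spans chr7:97851677-97928441, PSPH lies on the same chromosome, and the others lie on chromosomes 1 (PHGDH), 2 (MTHFD2), 4 (SLC7A11), 9 (PSAT1), 11 (SLC3A2), 12 (SHMT2), 13 (SLC7A1) and 16 (SLC7A5).

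When a cell lacks amino acids or its endoplasmic reticulum or mitochondria are under stress, kinases phosphorylate the initiation factor eIF2α. General translation then falls while ATF4 is translated from its mRNA, and ATF4 binds composite C/EBP-ATF elements in the promoters of genes that make, import and charge amino acids. The products of the genes described here stand at successive steps of this supply: ASNS makes asparagine, PHGDH, PSAT1 and PSPH make serine from a glycolytic intermediate, SHMT2 and MTHFD2 pass serine carbon into mitochondrial folate, and the SLC genes encode carriers for cystine, large neutral and cationic amino acids.

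The cells were MDA-MB-231, an established line of triple-negative breast cancer cells, incubated for 16 h in a serum-free medium in normoxia (N) or in hypoxia at 1% oxygen (H). They received no drug, 50 µM paclitaxel (N tax and H tax), which stabilizes microtubules, or 10 µM epirubicin (N epi and H epi), an anthracycline that intercalates into DNA and poisons topoisomerase II. Each of these 6 conditions had 2 arrays that could be assigned, of 18 deposited, and all values are log2 GC-RMA signals on Affymetrix HG-U133 Plus 2.0 arrays. The study describes its replicates as independent experiments. The p-values rest on the spread between the 2 arrays of a condition, pooled over the 6 conditions, and not on the compared conditions alone.

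The remaining 6 arrays carry contradictory drug labels in their titles and source names and entered only as alternatives. Added by title they left the counts below equal or higher. Added by source name no change of the 10 genes passed the test in any comparison, and neither did any other of the 24151 probe sets tested. Changes were taken as called below an adjusted p of 0.05 in a limma fit of the 12 arrays. All 6 genes that mark these cells, VIM, CD44, EGFR, KRT18, AXL and CAV1, were present on every array. PGR, CDH1, the hepatocyte genes ALB, APOB and FGB, the keratinocyte genes KRT5, KRT14, KRT1 and IVL and the leukocyte genes PTPRC, CD3E and CD14 and the endothelial gene VWF were present on none. KRT10, at 12.04 to 13.05 log2 units, EPCAM, at 6.01 to 8.02, and the dimmer ERBB3 and PECAM1 were present on all arrays, AFP on 2 and ESR1 on 1, and APOA1 read the same 3.34 on every array. The part of these genes in the results was not tested. Replicates correlated at 0.990 to 0.996 over the tested probe sets except in N epi, where the correlation was 0.976 and 10.2% of named genes differed by over 1 log2 unit between the arrays, against 0.286% in N. The 10 genes differed between the N epi arrays by at most 0.33 log2 units. On the H arrays, in contrast, all 10 genes read higher on replicate 1 than on replicate 2, by 0.18 to 1.81 log2 units, while 45.6% of all named genes did so. The ACTB control probe sets differed between their 3' and 5' ends by -0.31 to -0.21 log2 units on the epirubicin arrays, by -0.04 to -0.02 on the N arrays and by 0.07 to 0.32 on the others, and the part of this in the results was not tested.

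ASNS encodes asparagine synthetase, and its promoter is a textbook target of ATF4. Its sequence is shown because the core of the C/EBP-ATF element, searched on both strands as TGATGNAA, lay upstream of an annotated start of this gene. The window covers 250 bases before that start on the minus strand of RefSeq build GRCh38.p14, chr7:97872409-97872658. The capitals mark the match, which begins 68 bases before the start. A further ASNS window, before another annotated start, held no match and is not shown.

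ASNS: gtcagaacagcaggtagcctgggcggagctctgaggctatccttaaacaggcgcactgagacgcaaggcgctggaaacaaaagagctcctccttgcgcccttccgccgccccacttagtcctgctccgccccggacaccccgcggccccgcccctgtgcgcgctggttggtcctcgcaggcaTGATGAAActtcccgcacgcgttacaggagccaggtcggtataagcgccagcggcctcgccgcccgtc

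The element was found in 3 of 10 windows of the 7 genes with a promoter sequence in the RefSeq table, against 3.62% of all 35116 windows of the same length. Besides ASNS these were windows of SLC3A2 and SLC7A1, where the match began at bases 38 and 8 of the transcript. Those of PHGDH, PSAT1, MTHFD2 and SLC7A5 and the remaining windows of ASNS and SLC3A2 held no match within these letters. A match describes the sequence alone.

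ASNS read 11.12 and 11.51 on the 2 N arrays and 14.05 and 13.96 on the N tax arrays (log2 signal). The level thus rose by 2.69 ± 0.49 log2 units (SE) with paclitaxel in normoxia, or 6.47-fold (adjusted p = 0.00592). On the H arrays it was 12.08 and 10.28, and on the H tax arrays 14.05 and 14.03. The H arrays lay 1.81 log2 units apart, the widest gap within a condition among the 10 genes, whereas all 4 paclitaxel arrays lay between 13.96 and 14.05. Since the fit pools the spread over conditions, the gap between the H arrays enters the SE and interval of ASNS in every comparison, also in normoxia. Epirubicin left ASNS at 11.39 and 11.68 in normoxia and 11.54 and 11 in hypoxia, values that overlapped those without drug.

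**Figure D1:**
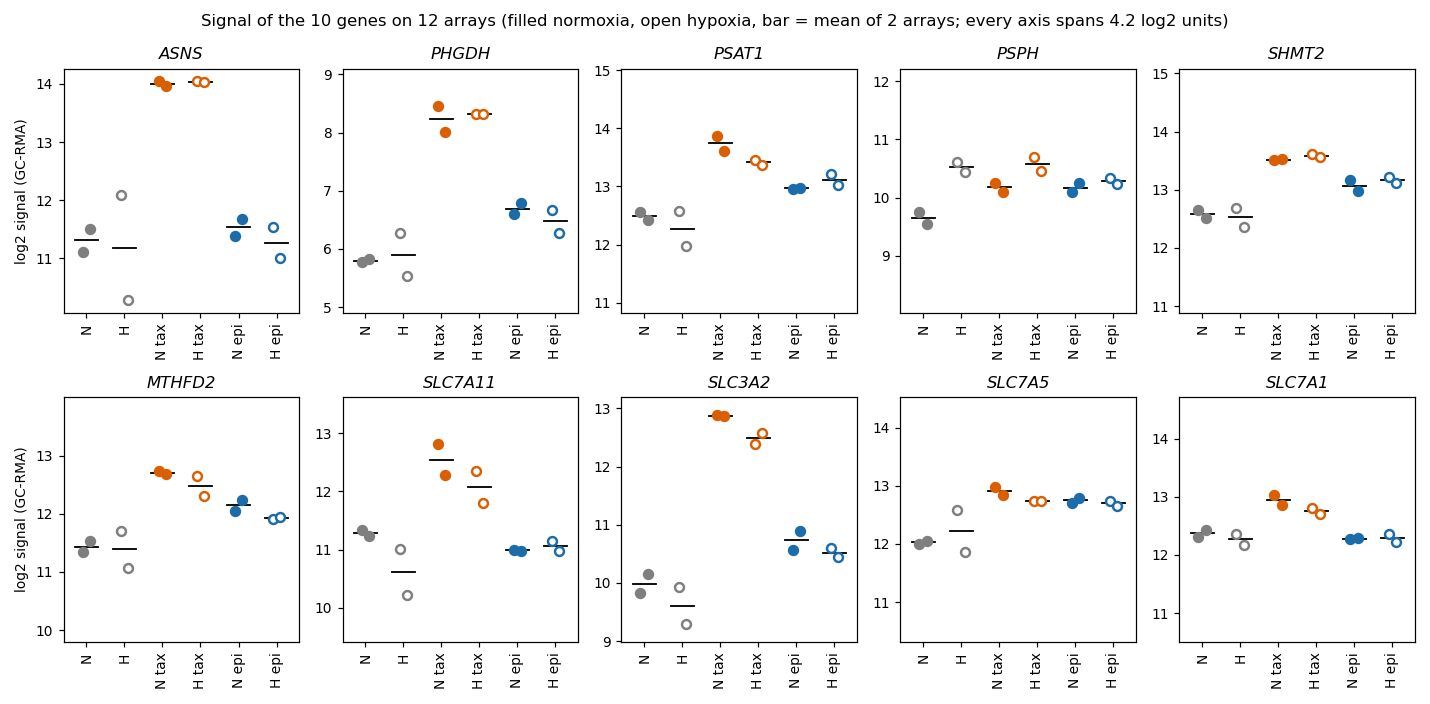
Log2 GC-RMA signal of the representative probe set of each gene on the 12 arrays, with filled points for normoxia, open points for hypoxia and a bar at the mean of 2 arrays. For all genes but PSPH and SLC7A5, all 4 paclitaxel arrays (orange) lie above all arrays without drug (grey) and with epirubicin (blue). For PSPH the H arrays lie above the N arrays.

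Paclitaxel raised all 10 genes in normoxia. The changes ran from 0.53 to 2.89 with a median of 1.26 on the log2 scale. For every gene both N tax arrays lay above both N arrays. The share of all named genes separated in this way was not counted, so that this separation shows nothing particular to the 10 genes. Among all named genes, 8.94% rose and 15.0% fell in this comparison, with a median of -0.03, and among the probe sets of the 10 genes 18 of 21 rose (9.49% of all probe sets tested did). ASNS, PHGDH, PSAT1, SHMT2, MTHFD2 and SLC3A2 passed the test whichever array was left out. The count fell to 6 without N replicate 1 or N tax replicate 1 and to 7 without N replicate 2, when PSPH, SLC7A11, SLC7A5 or SLC7A1 missed the threshold. Without the presence filter PSPH (adjusted p = 0.0558), SLC7A11 (adjusted p = 0.0713) and SLC7A5 (adjusted p = 0.0608) missed it too. PSPH also missed it in a fit of the N and N tax arrays alone (adjusted p = 0.0525). Since RNA came from whole cultures, a change per cell and a change in which cells remained cannot be told apart.

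Among the serine synthesis genes, PHGDH, whose product carries out the first step, had the largest rise. Its level was 5.77 and 5.82 on the N arrays and 8.46 and 8.01 on the N tax arrays, a rise of 2.44 ± 0.25 log2 units or 5.43-fold (adjusted p = 0.000583). PSAT1, the aminotransferase of the second step, went from 12.56 and 12.41 to 13.87 and 13.61, a rise of 1.26 ± 0.19 (adjusted p = 0.00283). PSPH, the phosphatase that releases serine, read 9.75 and 9.55 in N and 10.25 and 10.10 in N tax. Its rise of 0.53 ± 0.14 log2 units (adjusted p = 0.0263) was the smallest of the 10, and the other tested PSPH probe set changed by 0.56 with an adjusted p of 0.161. The other PSAT1 probe set read 11.23 and 11.19 in N and 13.02 and 12.84 in N tax, a wider step than on the representative one. By the representative probe sets the changes along this pathway ran from 1.44-fold to 5.43-fold, and differences between genes were not tested.

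In the mitochondrial folate branch, SHMT2, which splits serine into glycine and a folate-bound carbon unit, read 12.65 and 12.51 in N and 13.51 and 13.52 in N tax. The rise was 0.94 ± 0.14 log2 units (adjusted p = 0.0023), and the remaining SHMT2 probe sets rose by 1.03 and 1.23. MTHFD2, which oxidizes that carbon unit in mitochondria, went from 11.34 and 11.53 to 12.73 and 12.68 and rose by 1.27 ± 0.21 (adjusted p = 0.00409). Both genes thus rose on each probe set tested.

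SLC3A2, the heavy chain (4F2hc) that SLC7A5 and SLC7A11 need to reach the cell surface, had the largest change of the 10 genes. Its level was 9.82 and 10.15 on the N arrays and 12.88 and 12.87 on the N tax arrays, a rise of 2.89 ± 0.22 log2 units or 7.41-fold (adjusted p = 0.000196). Its light chain partners rose less by their representative probe sets, and the difference between genes was not tested. SLC7A11 (xCT), which takes up cystine in exchange for glutamate, read 11.34 and 11.23 in N and 12.81 and 12.28 in N tax and rose by 1.26 ± 0.29 (adjusted p = 0.0157). On SLC7A11 207528_s_at the means were 6.41 in N and 8.20 in N tax, a wider step. SLC7A5 (LAT1), which exchanges large neutral amino acids, read 12 and 12.05 in N and 12.97 and 12.84 in N tax and rose by 0.88 ± 0.20 (adjusted p = 0.016). SLC7A1 (CAT-1), a carrier of arginine and lysine that needs no heavy chain, went from 12.31 and 12.43 to 13.04 and 12.86, a rise of 0.58 ± 0.12 (adjusted p = 0.0102). Levels of different probe sets cannot be set against each other, so that these values say nothing of the ratio of heavy to light chains.

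In hypoxia, paclitaxel raised 8 of the 10 genes (H tax against H), where 13.3% of named genes rose and 18.2% fell. The order of the leading genes was the same as in normoxia, with SLC3A2 at 2.87 ± 0.22 (adjusted p = 0.000107), ASNS at 2.86 ± 0.49 (adjusted p = 0.00316) and PHGDH at 2.42 ± 0.25 log2 units (adjusted p = 0.000359). SLC3A2 read 9.93 and 9.29 on the H arrays and 12.39 and 12.58 on the H tax arrays, and PHGDH read 6.27 and 5.54 against 8.33 and 8.32. SLC7A11 rose by 1.47, PSAT1 by 1.14, MTHFD2 by 1.09, SHMT2 by 1.06 and SLC7A1 by 0.49. PSPH, at 10.61 and 10.44 on the H arrays and 10.69 and 10.45 on the H tax arrays, changed by 0.05 (95% interval -0.27 to 0.36). SLC7A5 changed by 0.52 with an adjusted p of 0.091. Fitted on the H and H tax arrays alone, with fewer arrays to estimate the spread, only PHGDH, SHMT2 and SLC3A2 passed.

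**Figure D2:**
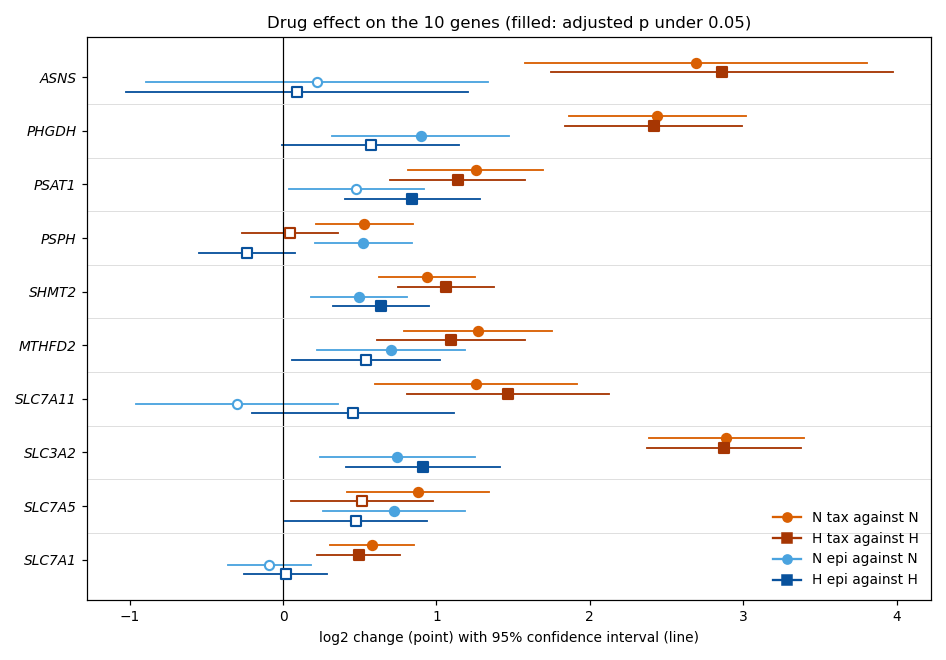
Log2 change of each gene with paclitaxel (orange) or epirubicin (blue) in normoxia (circles) and hypoxia (squares), with the 95% confidence interval from the limma fit and filled symbols where the adjusted p is under 0.05. The paclitaxel intervals of ASNS, PHGDH and SLC3A2 lie above 1.5 in both oxygen conditions, while the epirubicin intervals of ASNS include 0.

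Epirubicin in normoxia raised 6 of the 10 genes and lowered none, in a comparison where 24.2% of named genes rose and 30.8% fell. The median change of the 10 genes was 0.51 log2 units, against -0.01 over all named genes. PHGDH rose by 0.90 ± 0.25 (adjusted p = 0.017), SLC3A2 by 0.75 ± 0.22 (adjusted p = 0.0207), SLC7A5 by 0.72 ± 0.20 (adjusted p = 0.0166), MTHFD2 by 0.71 ± 0.21 (adjusted p = 0.0218), PSPH by 0.52 ± 0.14 (adjusted p = 0.0127) and SHMT2 by 0.49 ± 0.14 (adjusted p = 0.0162). For these called genes both N epi arrays lay above both N arrays. Here too the share of all named genes separated in this way was not counted, so that this shows nothing particular to them. On the N epi arrays PHGDH read 6.60 and 6.79, and SLC7A5 read 12.70 and 12.80. The other tested PSPH probe set changed by 0.35 (adjusted p = 0.285).

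PSAT1 read 12.96 and 12.97 on the N epi arrays and changed by 0.48 (adjusted p = 0.0654), although its other probe set rose by 0.70 (adjusted p = 0.0128). ASNS changed by 0.22 (95% interval -0.89 to 1.34). SLC7A11, at 10.99 on both N epi arrays, changed by -0.30 (-0.96 to 0.36), and SLC7A1, at 12.28 and 12.29, by -0.09 (-0.36 to 0.18), so that a rise in SLC7A1 as large as that with paclitaxel lay outside its interval. With each array centred on its median, the changes of SLC7A11 and SLC7A1 turned to 0.11 and 0.32, and neither passed the test. The count of 6 fell to 1 without N replicate 2 or N epi replicate 2, and to 2 without N replicate 1 or without the presence filter. Since both drug comparisons in normoxia use the same N arrays, their values are given side by side and not correlated.

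In hypoxia, epirubicin raised 3 of the 10 genes (H epi against H), a count near the 29.5% of named genes that rose, while 36.2% fell. SLC3A2 rose by 0.91 ± 0.22 (adjusted p = 0.00632), PSAT1 by 0.84 ± 0.19 (adjusted p = 0.00475) and SHMT2 by 0.64 ± 0.14 log2 units (adjusted p = 0.00344). SLC3A2 read 10.60 and 10.44 on the H epi arrays. The next changes were 0.57 for PHGDH (adjusted p = 0.0777), 0.54 for MTHFD2 (adjusted p = 0.0504) and 0.48 for SLC7A5 (adjusted p = 0.067). The H arrays decided much of this comparison. Without H replicate 1, on which all 10 genes read higher, 8 genes rose, ASNS among them by 0.99 (adjusted p = 0.0161), whereas without H replicate 2 ASNS fell by 0.81 (adjusted p = 0.0328). ASNS therefore has no settled direction here.

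Scaling bears on every epirubicin value. Over all tested probe sets, centring each array on its median moved the median change by 0.41 log2 units in N epi against N and by 0.54 in H epi against H, and quantile normalization moved it by 0.18 and 0.24. The share of calls that were rises went from 47.1% to 69.3% and from 48.8% to 69.6% with median centring, and to 58.2% and 60.0% with quantile normalization. With these shifts included, 7 of the 10 genes rose in N epi and 8 in H epi after median centring. Of all probe sets tested, 45.2% and 53.0% rose under that scaling. After quantile normalization 6 and 4 of the genes rose, where 33.1% and 41.6% of all probe sets did. The count of 4 thus lay near the share of all. The medians of N tax against N and H tax against H were 0.03 and 0.04 after median centring, and the counts of 10 and 8 were the same under both scalings.

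Set against each other in normoxia, epirubicin gave lower levels than paclitaxel for 8 of the 10 genes (N epi against N tax), in a comparison where 33.6% of named genes were lower and 30.3% higher. The log2 difference was -2.47 ± 0.49 for ASNS, 5.55-fold (adjusted p = 0.00246), and -2.14 ± 0.22 for SLC3A2, 4.42-fold (adjusted p = 9.97e-05). It was -1.56 ± 0.29 for SLC7A11 (adjusted p = 0.00175), -1.54 ± 0.25 for PHGDH (adjusted p = 0.000956), -0.78 for PSAT1, -0.67 for SLC7A1, -0.56 for MTHFD2 and -0.45 for SHMT2. PSPH and SLC7A5 differed by -0.01 (95% interval -0.32 to 0.31) and -0.16 (-0.62 to 0.30). The drugs were given at different doses, so that these are differences between the conditions and not between the compounds at equal dose. MTHFD2 passed in 9 and SHMT2 in 16 of the 22 alternative settings. MTHFD2 missed the threshold with a block for the replicate number (adjusted p = 0.0535) and without the presence filter (adjusted p = 0.135). The second SHMT2 probe set differed by -0.37 (adjusted p = 0.145). The count was 5 without N tax replicate 1, and with median centring ASNS, SLC3A2, SLC7A11 and PHGDH were the 4 still called lower.

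In hypoxia, 7 genes were lower with epirubicin than with paclitaxel (H epi against H tax), where 37.2% of named genes were lower and 33.0% higher. The differences were -2.77 ± 0.49 for ASNS (adjusted p = 0.00102), -1.96 ± 0.22 for SLC3A2 (adjusted p = 8.94e-05), -1.85 ± 0.25 for PHGDH (adjusted p = 0.000253) and -1.01 ± 0.29 for SLC7A11 (adjusted p = 0.0126), with smaller ones for MTHFD2, SLC7A1 and SHMT2. The last 4 of these depended on settings. SLC7A11 differed by -0.51 under median centring (adjusted p = 0.126) and missed the threshold without H tax replicate 1 (adjusted p = 0.0916), without H epi replicate 2 (adjusted p = 0.0621) and without the presence filter (adjusted p = 0.0557). Under median centring, when 3 genes were called, SHMT2 and SLC7A1 turned to 0.08 and 0.03, and the second MTHFD2 probe set differed by 0.08. The count was 4 without H tax replicate 1 or without H epi replicate 2. ASNS, SLC3A2 and PHGDH were lower in both oxygen conditions under either scaling.

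Hypoxia alone changed 1 of the 10 genes past the test (H against N), where 4.26% of named genes rose and 5.75% fell. Over both directions 10.0% of named genes were called, so that 1 of 10 is no more than the share of all. PSPH read 9.75 and 9.55 on the N arrays and 10.61 and 10.44 on the H arrays and rose by 0.88 ± 0.14 log2 units or 1.84-fold (adjusted p = 0.00743). Its other tested probe set, at 8.37 and 8.59 in N and 9.05 and 8.37 in H, changed by 0.23 (adjusted p = 0.697). The rise missed the threshold without N replicate 2 (adjusted p = 0.0686) or H replicate 1 (adjusted p = 0.0679). PSPH has a close pseudogene copy, and a probe set with the suffix _s_at can match several transcripts, so that the source of this signal is uncertain.

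The other 9 genes changed by -0.68 to 0.20 log2 units in hypoxia without drug. SLC7A11 was at 11 and 10.22 on the H arrays, below both N arrays, with a change of -0.68 (unadjusted p = 0.0445, adjusted p = 0.197). For ASNS the interval ran from -1.25 to 0.98, which leaves room for a change of about 1 log2 unit in either direction. SHMT2, MTHFD2 and SLC7A1 had intervals within -0.53 to 0.43. With paclitaxel, limma called none of the 10 genes between hypoxia and normoxia (1 had an unadjusted p under 0.05, and 1.25% of named genes were called), with changes of -0.47 for SLC7A11 to 0.40 for PSPH. With epirubicin it also called none (0 at an unadjusted p under 0.05, and 1.71% of named genes were called), and the changes ran from -0.26 for ASNS to 0.15 for PSAT1.

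The hypoxia effect was compared between drug and no drug by the interaction term of the same fit, which is also the test of whether the drug effect differed between oxygen conditions. No representative probe set passed with paclitaxel (0.107% of named genes did, and 1 of the 10 genes had an unadjusted p under 0.05) or with epirubicin (4.09% did, and again 1 of the 10 had an unadjusted p under 0.05). In both cases this 1 gene was PSPH, whose hypoxia effect was lower by 0.48 ± 0.19 log2 units with paclitaxel (adjusted p = 0.58) and by 0.76 ± 0.19 with epirubicin (adjusted p = 0.0724). The latter passed with the contradictory arrays added by title (adjusted p = 0.00553) and after quantile normalization (adjusted p = 0.0428). Without N epi replicate 1 the epirubicin term of PSPH was -0.83. On the other tested PSPH probe set this term was -0.26 and did not pass. For SLC3A2 and PHGDH the paclitaxel interaction was -0.02 in both, with intervals of -0.73 to 0.70 and -0.84 to 0.79.

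**Figure D3:**
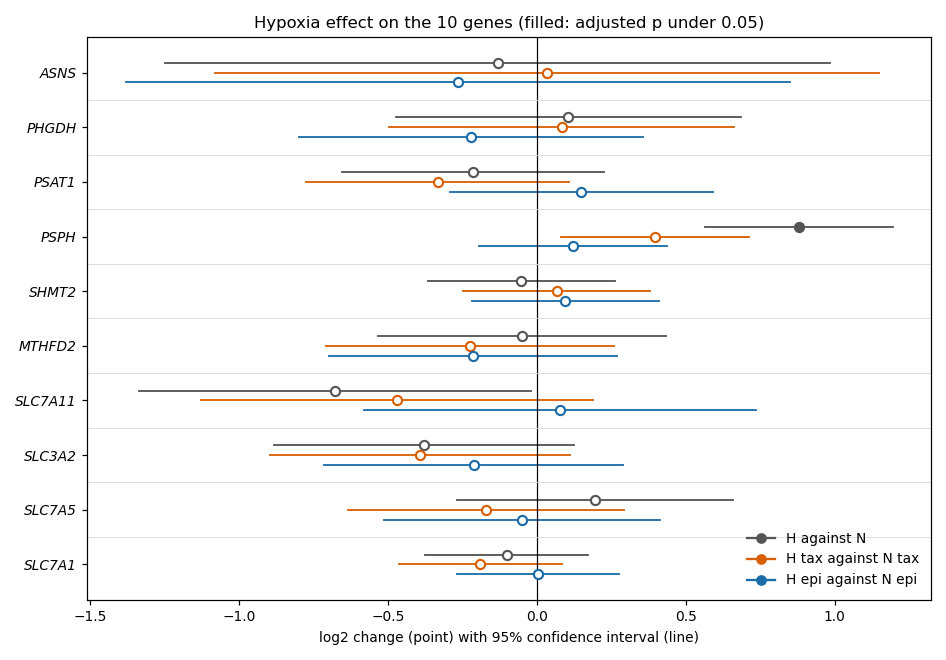
Log2 change of each gene between hypoxia and normoxia without drug (grey), with paclitaxel (orange) and with epirubicin (blue), with the 95% confidence interval and a filled point where the adjusted p is under 0.05. PSPH without drug, at 0.88, is the filled point, and the intervals of ASNS are the widest.

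Probe sets of one gene did not always move together. In H tax against N tax the PSPH probe sets changed by 0.40 (205048_s_at) and -0.34 (205194_at), neither past the test, and in N epi against N tax MTHFD2 was lower by the test on 201761_at (-0.56) but not on 234976_x_at (-0.04). SLC7A11 207528_s_at read 6.37 and 6.45 on the N arrays, 4.17 and 3.37 on the H arrays, 8.27 and 8.13 with N tax, 7.06 and 6.75 with H tax, 7.22 and 6.56 with N epi and 7.51 and 6.68 with H epi. It fell by 2.64 ± 0.35 log2 units in hypoxia without drug (adjusted p = 0.00429), whereas the 2 brighter SLC7A11 probe sets changed by -0.68 and -0.65 without passing. It rose by 3.32 in H epi against H and by 3.14 in H tax against H, more than the other SLC7A11 probe sets, which changed by 0.46 and 0.66 with epirubicin and by 1.47 and 1.44 with paclitaxel, and this difference between probe sets was not tested. The second of them, 217678_at, passed with epirubicin in hypoxia (adjusted p = 0.0336) where the representative one did not.

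Of the 5 SLC7A1 probe sets, the brightest, 212295_s_at, did not rise past the test with epirubicin, but 212292_at rose by 0.90 in normoxia (adjusted p = 0.0103) and by 1.11 in hypoxia (adjusted p = 0.00263). On 212292_at the N arrays read 4.49 and 4.89 and the N epi arrays 5.84 and 5.35. Another SLC7A1 probe set, 206566_at, rose by 1.77 with epirubicin in hypoxia (adjusted p = 0.00204), from 3.20 and 4.32 to 5.83 and 5.24. SLC7A1 215979_s_at stayed between 4.75 and 5.15 on all arrays. Whether SLC7A1 responded to epirubicin thus depends on the probe set. For paclitaxel in normoxia, 3 of the 5 passed, all upward.

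**Figure D4:**
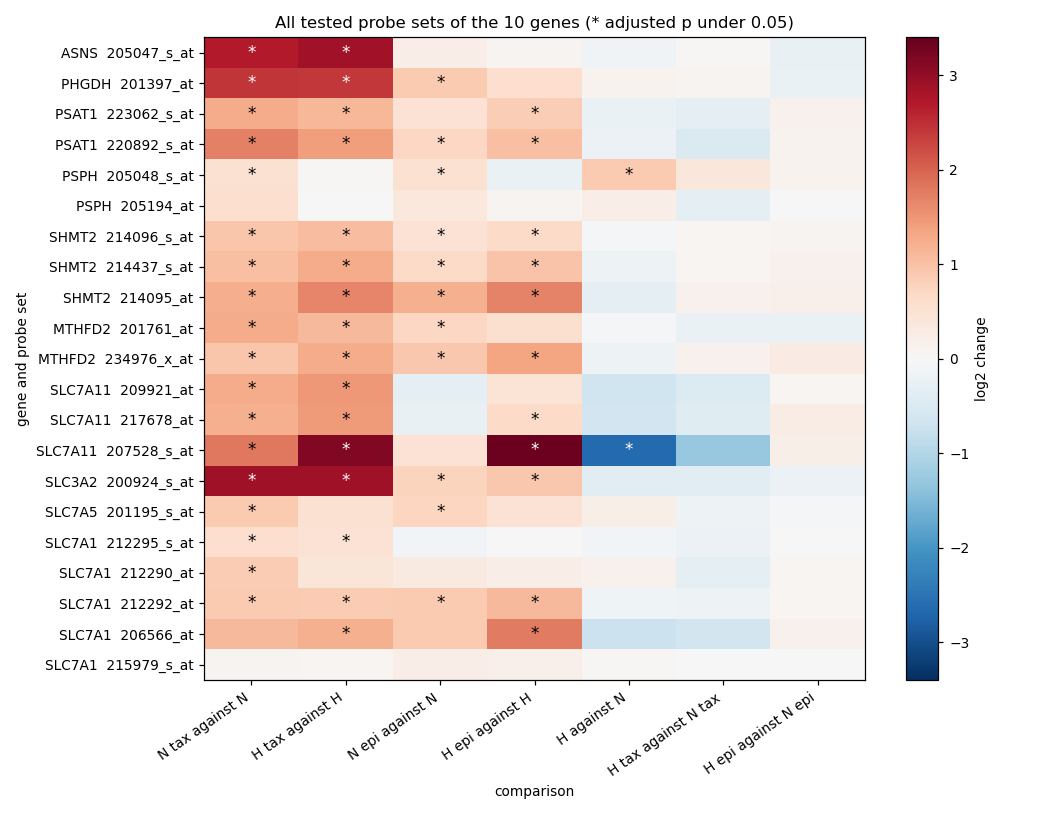
Log2 change of each of the 21 tested probe sets (rows, by gene) in 7 comparisons (columns), red for higher and blue for lower in the first-named condition, with an asterisk where the adjusted p is under 0.05. The paclitaxel columns are red for nearly all probe sets, and SLC7A11 207528_s_at carries the strongest blue, -2.64 in H against N.

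Over the 12 arrays, ASNS correlated most with WARS1 (r = 0.978), AARS1 (r = 0.976), GARS1 (r = 0.974), RBCK1 (r = 0.968) and SQSTM1 (r = 0.967), of 11196 other named genes. WARS1, AARS1 and GARS1 charge tRNA with tryptophan, alanine and glycine, RBCK1 is a subunit of the linear ubiquitin ligase complex and SQSTM1 (p62) is an autophagy receptor. WARS1 read 11.66 and 11.88 on the N arrays, 13.63 and 13.48 with N tax and 12.09 and 12.36 with N epi. SQSTM1 read 12.43 and 12.51, 14.38 and 14.19, and 12.35 and 12.69 on the same arrays. Of the other genes described here, PHGDH had r = 0.956 with ASNS, SLC3A2 0.951, SLC7A1 0.949 and SLC7A11 0.914, while MTHFD2, PSAT1 and SHMT2 lay between 0.829 and 0.863, SLC7A5 at 0.661 and PSPH at 0.322. These values describe 12 arrays in 6 conditions and share the large step with paclitaxel.

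ATF4 mRNA itself read 12.87 and 12.59 on the N arrays, 14.22 and 14.14 with N tax and 11.86 and 12.29 with N epi. It rose by 1.45 ± 0.28 log2 units with paclitaxel in normoxia (adjusted p = 0.00774) and by 1.39 ± 0.28 in hypoxia (adjusted p = 0.00655). With epirubicin the changes were -0.65 (adjusted p = 0.0794) and -0.69 (adjusted p = 0.0583), and ATF4 differed between epirubicin and paclitaxel in normoxia by -2.10 ± 0.28 (adjusted p = 0.000328). Hypoxia without drug changed it by -0.12 (adjusted p = 0.895). The mRNA does not show the translation by which ATF4 is mainly controlled.

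Of 20 tested ATF4 pathway regulators and stress targets, paclitaxel in normoxia raised 9 and lowered 1, EIF2AK2, with a median of 1.50 log2 units (8.94% of named genes rose). DDIT3 (CHOP) rose by 3.83, ATF3 by 3.77, SESN2, an inhibitor of mTORC1 signalling, by 3.29 and NUPR1 by 3.19. With epirubicin in normoxia 4 rose and 6 fell, with a median of -0.66, and these counts lay near the 24.2% of named genes that rose and the 30.8% that fell. The falls were led by DDIT4, another mTORC1 inhibitor (-5.22), TRIB3 (-2.94), PPP1R15B, a regulatory subunit of the eIF2α phosphatase (-2.79), and the eIF2α kinase EIF2AK3, or PERK (-2.36). The N epi arrays differed widely in these genes, with DDIT4 at 3.86 and 10.28 and TRIB3 at 6.94 and 9.81, against 12.19 and 12.40 and 11.07 and 11.57 on the N arrays. The 9 rises with paclitaxel became 4 without either N array and 5 without either N tax array. With epirubicin, 1 rise was left without N replicate 1 and 3 falls without N replicate 2, and 10 fell without N epi replicate 2.

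**Figure D5:**
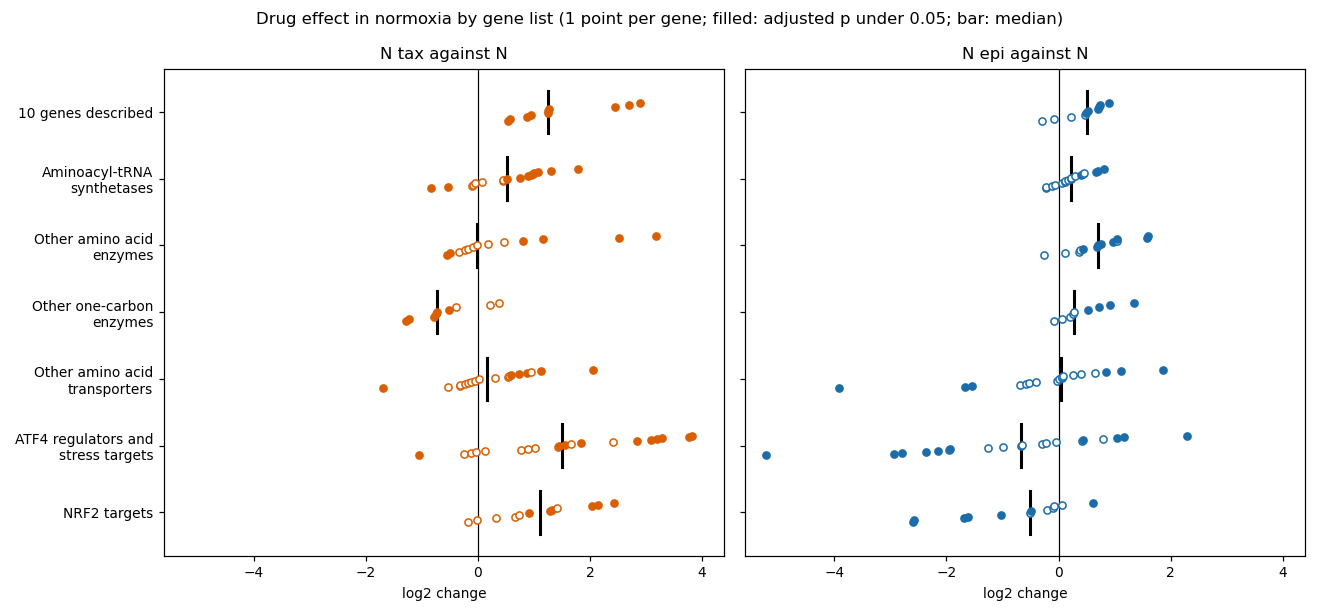
Log2 change in normoxia with paclitaxel (left) and with epirubicin (right), 1 point per tested gene of each list, filled where the adjusted p is under 0.05, with a black bar at the median of the list. The 10 genes described lie at a median of 1.26 with paclitaxel and 0.51 with epirubicin, and the ATF4 regulators and stress targets at 1.50 and -0.66.

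Among 17 tested cytosolic aminoacyl-tRNA synthetases, which charge tRNA with amino acids, paclitaxel in normoxia raised 9 and lowered 2, where 8.94% of named genes rose. WARS1 rose by 1.78, SARS1 by 1.30, GARS1 by 1.07 and YARS1 by 1.00 log2 units, and FARSB and VARS1 fell by 0.84 and 0.54. The 9 became 5 without N replicate 1 and 6 without N replicate 2, and 1 of the falls was left without either of these or N tax replicate 1. In hypoxia, paclitaxel raised 12 and lowered none (13.3% of named genes rose), and 8 rose without H tax replicate 1, while without H tax replicate 2 1 fell. Epirubicin in normoxia raised 4, VARS1 by 0.82, NARS1 by 0.71, FARSB by 0.66 and KARS1 by 0.39, a count near the 24.2% of named genes that rose. VARS1 and FARSB thus moved in opposite directions with the 2 drugs.

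Of 13 further enzymes of non-essential amino acids tested, 4 rose, 2 fell and 7 were not called with paclitaxel in normoxia, with a median of -0.02 log2 units (8.94% of named genes rose and 15.0% fell). CTH, which makes cysteine from cystathionine, rose by 3.18, the argininosuccinate synthase ASS1 by 2.52, the aspartate aminotransferase GOT1 by 1.16 and the proline enzyme PYCR1 by 0.80 log2 units, and OAT and GOT2 fell by 0.55 and 0.50. CTH read 7.28 and 8.19 on the N arrays and 10.94 and 10.90 on the N tax arrays. Without N replicate 1, N tax replicate 1 or N tax replicate 2 only 2 of the 4 rises passed, and without any 1 of the 4 arrays of this comparison neither fall did. With epirubicin in normoxia 8 rose and none fell, where 24.2% of named genes rose and 30.8% fell, led by ASS1 at 1.59, ASL, the next enzyme of arginine synthesis, at 1.58, PYCR1 at 1.04 and GLUD1 at 0.97.

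Of 15 further enzymes of one-carbon metabolism and glycine cleavage, 9 were tested. With paclitaxel in normoxia, where SHMT2 and MTHFD2 rose, 6 of the 9 fell and none rose, with a median of -0.73 log2 units (15.0% of named genes fell). Thymidylate synthase (TYMS) fell by 1.28, the mitochondrial serine carrier SFXN1 by 1.23, the glycine cleavage subunit DLD by 0.79 and the cytosolic folate enzyme MTHFD1 by 0.75. TYMS read 13.89 and 13.88 on the N arrays and 12.40 and 12.82 with N tax. In hypoxia 6 fell as well and none rose. Fewer falls passed in normoxia when any N or N tax array was left out, and in hypoxia when either H array was. With epirubicin in normoxia, where SHMT2 and MTHFD2 also rose, 4 of the 9 rose, GCSH of the glycine cleavage system by 1.34, MTHFD2L by 0.92, MTR by 0.72 and ALDH1L1 by 0.52, and none fell (24.2% of named genes rose and 30.8% fell). In H epi against H 5 rose and none fell, where 29.5% of named genes rose. Fewer of these rises passed without either H array or H epi replicate 1, and fewer of those in normoxia without N replicate 1.

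Of 18 other amino acid transporters tested, 5 rose and 1 fell with paclitaxel in normoxia, where 8.94% of named genes rose. SLC1A4 and SLC1A5, carriers of small neutral amino acids and glutamine, rose by 2.05 and 1.12 and SLC38A1 by 0.87 log2 units. The fall was that of the glutamate carrier SLC1A1, which read 4.73 and 4.58 on the N arrays and 2.52 and 3.39 on the N tax arrays and was present on 1 of the latter, so that no size is given. Without N replicate 1 none of the 5 rises passed, and without N replicate 2 or N tax replicate 1 only 1 did, each time without the fall. With epirubicin in normoxia 3 rose and 3 fell, both smaller shares than the 24.2% and 30.8% of all named genes. The changes were 1.86 for SLC7A2, a cationic amino acid carrier, -3.92 for SLC38A2 (SNAT2) and -1.66 for SLC38A9, and SLC1A1, present on 1 of the N epi arrays, read 3.37 and 2.85. SLC38A2 read 12.73 and 12.87 on the N arrays and 7.18 and 10.59 on the N epi arrays.

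SLC7A11 is also a target of NRF2, the regulator of the response to oxidants. Among 12 other tested NRF2 targets and regulators, paclitaxel in normoxia raised 6 and lowered none (8.94% of named genes rose), with HMOX1 up by 2.43, OSGIN1 by 2.15, SRXN1 by 2.03 and GCLM by 1.33 log2 units. Epirubicin in normoxia raised 1, ABCC3, and lowered 6 (30.8% of named genes fell), with changes of -2.59 for GCLC, -2.58 for KEAP1, -1.69 for HMOX1 and -1.61 for NFE2L2, the gene of NRF2. The 6 falls became 3 without either N array, and ABCC3 missed the threshold without N replicate 1 or N epi replicate 2. SLC7A11 rose in the first of these comparisons and changed by -0.30 in the second.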

How the data were processed

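Signals of 18 Affymetrix HG-U133 Plus 2.0 arrays of MDA-MB-231 cells were used. The authors normalized them with GC-RMA (processing tool per the submitters' notes, version not given in the sources used here) and deposited log2 values, which ran from 2.23 to 16.6. Their methods name AffyProbeMiner chip definitions, while the deposited rows carry standard Affymetrix names. GC-RMA scales the arrays to a common distribution before probes are summarized, so that a change in total mRNA per cell is not measured. No scanner values were used and the number of arrays limits the precision.

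The 12 arrays whose labels agree entered a single limma fit (limma 3.58.1, R 4.3.3), with 6 residual and 2.28 prior degrees of freedom. Two-sided p-values were adjusted by the Benjamini-Hochberg procedure over 24151 of 54613 probe sets, those above the methods' presence threshold (3.14 on the log2 scale) on each array of 1 condition or more, and called below 0.05. Between 41.4% and 42.6% of probe sets were present on an array. By the platform's annotation, 41097 probe sets had 1 symbol, 1801 had several and 11777 were not listed. Of 11197 named genes, each was represented by its brightest tested probe set. Promoter windows and coordinates came from RefSeq tables (GRCh38.p14). The fit was tested on simulated data.

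All 10 genes and their probe sets were named. From each further list, written by hand, up to 4 genes with the largest changes past the test were named, and other list genes were chosen after their values were seen. The genes most like ASNS were the 5 with the highest Pearson correlation. The 10 genes and the lists were chosen with earlier results of these data known.

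Alternatives were the contradictory arrays placed by their titles or by their source names, leave-one-out fits, a block for the replicate number, dropping the presence filter or raising it by 1 log2 unit, quantile normalization, median centring, a trended and robust variance, the comparison's own groups and the second brightest probe set. Leaving out arrays for the list counts was added after seeing the data.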

Additional observations from a re-analysis of the deposited data

Results flagged for a closer look

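SLC7A11 207528_s_at had a hypoxia effect that differed between epirubicin and no drug. Its signal fell by 2.64 log2 units in hypoxia without drug and changed by 0.20 with epirubicin, a difference of 2.84 ± 0.49 in the interaction term (adjusted p = 0.0227, limma). Without drug, both H arrays lay below both N arrays, at 4.17 and 3.37 against 6.37 and 6.45, while the N epi and H epi arrays overlapped. The adjusted p was 0.0838 without N replicate 1, 0.0973 without N replicate 2, 0.0525 without H replicate 2, 0.0514 without N epi replicate 2, 0.0782 without the presence filter and 0.0839 on the groups of the comparison alone. With the 6 arrays of contradictory labels added by source name the difference was 1.62 (adjusted p = 1). For the representative SLC7A11 probe set, 209921_at, the same term was 0.76 ± 0.41 (adjusted p = 0.333).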

How the results depend on the processing

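Counts are of the 10 genes past the test. With the third arrays added by source name the count was 0 in every comparison, where none of the 24151 probe sets tested passed either. By title it was 2 in H against N, 7 in H epi against H and 1 in the epirubicin interaction. With the second brightest probe set it was 0 in H against N, 5 in H epi against H and 4 in H epi against H tax. Without the presence filter it was 2 in N epi against N. In that setting PSPH, SLC7A11 and SLC7A5 missed the threshold in N tax against N. MTHFD2 missed it in N epi against N tax, and MTHFD2 and SLC7A11 missed it in H epi against H tax. On the groups of each comparison alone the count was 3 in H tax against H and 1 in H epi against H. Median centring gave 8 in H epi against H, 4 in N epi against N tax and 3 in H epi against H tax, a trended and robust variance gave 5 in H epi against H, and quantile normalization gave 1 in the epirubicin interaction. With each array left out, the counts ran from 0 to 1 in H against N, 6 to 10 in N tax against N, 1 to 7 in N epi against N, 7 to 9 in H tax against H, 3 to 8 in H epi against H, 5 to 8 in N epi against N tax, 4 to 7 in H epi against H tax and 0 to 1 in the epirubicin interaction, and the count was 0 throughout in the other comparisons.

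Directions turned for PHGDH (-0.44), MTHFD2 (-0.075) and SLC3A2 (-0.52) in N epi against N and for SLC3A2 (-0.42) in H epi against H with the third arrays added by source name. They also turned for ASNS in H epi against H when arrays were left out (-0.81 without H replicate 2 to 0.99 without H replicate 1) and, in H epi against H tax, for SHMT2 (0.082) and SLC7A1 (0.026) under median centring and for MTHFD2 (0.079) with its second probe set. The causes were not tested. The deviations of same-numbered arrays correlated at -0.18 to 0.30 over 15 pairs of conditions, highest for N tax with H tax, and neither these values nor the labels settle whether a number marks a shared experiment. With the replicate block the counts were 1 in H against N, 10 in N tax against N, 7 in N epi against N, 8 in H tax against H, 3 in H epi against H, 7 in N epi against N tax, 6 in H epi against H tax and 0 elsewhere. With 2 arrays per condition, the signal over background of dim probe sets such as SLC7A11 207528_s_at in hypoxia limits what can be measured.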

Other observations

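On the 6 arrays whose labels disagree, SLC3A2 read 9.86, 12.90 and 10.60 (log2 signal) on those titled N, N tax and N epi, whose source names give N epi, N and N tax. It read 9.52, 12.59 and 10.58 on those titled H, H tax and H epi, whose source names give H epi, H and H tax. In the same orders, ASNS read 11.30, 14.13 and 11.89 in normoxia and 11.35, 14.06 and 11.93 in hypoxia, and PHGDH read 5.83, 8.94 and 7.37 and 5.57, 8.57 and 7.11. PSPH read 9.61, 10.46 and 10.29 and 10.38, 10.77 and 10.24, and SLC7A11 read 11.45, 12.68 and 11.34 and 10.53, 11.77 and 11.63. For SLC3A2, ASNS, PHGDH and SLC7A11 the highest values were on the arrays titled N tax and H tax. Over the probe sets, each of the 6 correlated more with the arrays of its title (0.995 to 0.999) than with those of its source name (0.939 to 0.988), and the array titled N epi was nearest to H epi. These values moved no array into a group.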
